A study of Mus musculus with 22 samples.

Results

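The comparison described here set sorted cells of the control mouse trachea at embryonic stage E13.5 against whole control tracheas at E11.5, and asked which genes moved the same way in every sorted population. A gene was taken as a member when its level in all 6 sorted libraries lay above, or in all 6 lay below, its level in each of the 5 E11.5 libraries, so that the choice was made on the values themselves. Of 14971 genes tested, 266 lay above and 655 lay below, 1.78% and 4.38% of the genes. These values chose the members and are given as a description with no test, and the genes named were those with the widest gap between the groups. The level of a gene is given in CPM, its share of the library's counts on a common scale, adjusted between libraries by the trimmed mean of M-values.

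The E11.5 controls were Wnt5a f/f tracheas, and each library pooled 5 of them. The E13.5 tracheas carried the gamma SMA eGFP reporter, were pooled, 5 to a sample, and were dissociated and sorted into EpCAM-APC positive epithelium, GFP positive muscle and cells negative for both, which the labels call chondroblasts. The sorted controls were labelled Bmp4 f/f with the reporter or Notum 300/300 with the reporter, and the names of the libraries do not say which is which. Each population had 2 libraries in the table, 1 for each of 2 dates, named here earlier and later, although the labels list 3 samples for each. The populations of a date may be fractions of the same pool of tracheas, so the sorted libraries may share animals. A further 7 libraries, which the choice of members did not use, gave the same contrast of stage and sort. These were 4 pools of E11.5 tracheas from Dermo1Cre; Wnt5a f/f embryos, in which the Cre acts in mesenchyme, and 3 libraries, of 4 samples in the labels, of Notum 150/150 double-negative cells with the reporter. These 3 all carry the later date, and 2 of them share a number in their names. The mutant contrast therefore holds the effects of both genotypes as well as stage and sort, and 4 of the 5 control names share a number with a mutant name, so that the E11.5 libraries may share litters. No strain is given in the labels. Stage, dissociation and sorting, mouse line and date differ together between the groups and cannot be told apart. The labels give only separate samples, so p-values measure the spread between these samples.

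The 5 E11.5 libraries, A to E, held 17128281, 20034349, 18060014, 14566843 and 6880660 estimated counts. The sorted libraries held 20491962 and 15598652 in epithelium, 17566726 and 16473974 in muscle, and 21678177 and 13513229 in chondroblasts, earlier date first. The mutant libraries held between 16108973 and 21521621. Genes at 1 CPM or more numbered 14314, 13748, 14225, 15434 and 17370 in E11.5 libraries A to E. In the sorted libraries they numbered 11357 to 13721, fewer than in any E11.5 library. In the E11.5 mutants they numbered 14159 to 14599, and in the chondroblast mutants 13948 to 14136. The part of this difference in the number of genes below and in sorted values of 0 was not tested. A gene with no count could still hold up to 3 counts by counting error alone, a limit of 0.463 CPM in E11.5 library E and of at most 0.218 CPM in any sorted library.

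The trachea forms from foregut endoderm, which becomes its epithelium, and from the mesenchyme around it, which gives rise to smooth muscle on the dorsal side and to cartilage on the ventral and lateral sides. In this period mesenchymal progenitors leave an early proliferating state, lay down extracellular matrix and begin to condense. A whole organ also holds vessels, a mesothelial covering and circulating blood cells, and a sort for cells without either label keeps such cells where they are present.

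The labels of the sorts were checked against marker genes. The 15 epithelial markers summed to 4145 and 4952 CPM in the epithelium and to between 36.9 and 61.7 CPM in the other sorted libraries. The 12 smooth muscle markers summed to 15599 and 12089 CPM in muscle and to at most 206 CPM in the other sorted libraries. The 16 chondroblast markers summed to 4512 and 3807 CPM in the double-negative libraries, and to 1397 and 2912 CPM in muscle, so this set was shared between both mesenchymal sorts. The earlier double-negative library also held 78081 CPM of erythroid genes, led by Hba-a1, against 7781 CPM in the later one and 16.8 to 3512 CPM in epithelium and muscle. The earlier muscle library held 2143 CPM of cardiac and 893 CPM of skeletal muscle markers, against 738 and 96.7 CPM in the later one. Macrophage and leukocyte markers summed to 1.34 CPM in the later epithelium and 1.41 CPM in the earlier muscle, and to between 442 and 927 CPM in the other sorted libraries. In bulk libraries, fewer cells of a type and less RNA per cell cannot be told apart.

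Taken singly, the populations differed from E11.5 in many more genes than they shared. With edgeR's quasi-likelihood test and an adjusted p under 0.05, 783 genes (5.23%) were higher and 1113 (7.43%) lower in epithelium, 743 (4.96%) higher and 648 (4.33%) lower in muscle, and 379 (2.53%) higher and 285 (1.9%) lower in chondroblasts. The 3 comparisons share the 5 E11.5 libraries. Genes called higher in all 3 numbered 67, and those called lower in all 3 numbered 25; all of these were members, and since the same libraries chose the members nothing is read from it. These counts rest on few libraries. Without the earlier epithelium, 1405 genes were higher and 3221 lower in epithelium, and without the later one 304 and 491. Muscle gave 358 and 346 without its later library and 440 higher genes without its earlier one, and chondroblasts gave 121 and 49 without the later library and 205 higher genes without the earlier one. Without E11.5 library A the counts were 458 and 625 in epithelium, 436 and 349 in muscle, and 232 and 144 in chondroblasts. Without library D they were 446 and 598, 405 and 323, and 205 and 116, and without library C 494 and 686, 478 and 392, and 274 and 189. Leaving out an epithelial library also raised the counts in muscle, to 1231 and 1204 or 1215 and 1189, and in chondroblasts, to 668 and 459 or 658 and 453, earlier library first. Without an overlap of libraries, 2319, 2667 and 2506 genes stood above E11.5 in epithelium, muscle and chondroblasts taken alone, and 3627, 3236 and 2914 stood below.

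Ecrg4, Osr2 and Wif1 were among the genes with the widest gap upwards. Ecrg4, which encodes a secreted peptide precursor, measured 0.397, 0.731, 0, 0.604 and 0.617 CPM at E11.5, against 33.7 and 20.05 CPM in epithelium, 59.3 and 78.9 CPM in muscle, and 269 and 165 CPM in chondroblasts. Osr2, a zinc finger transcription factor of the odd-skipped family, measured 0.604 to 2.44 CPM at E11.5 and 18.97 to 124 CPM in the sorted libraries. Wif1, a secreted inhibitor of Wnt ligands, measured 2.55, 2.19, 3.74, 2.75 and 3.09 CPM at E11.5, against 31.1 and 19.5 CPM in epithelium, 55.7 and 174 CPM in muscle, and 292 and 219.9 CPM in chondroblasts. In each of these genes the lowest sorted library was several times the highest E11.5 library, and chondroblasts had the highest mean. Muscle had a higher mean than epithelium for Ecrg4 and Wif1, and a lower one for Osr2. Pamr1 was most abundant in muscle, with 116 and 170.4 CPM, against 2.01 to 3.79 CPM at E11.5.

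Fbln5, needed for elastic fibre assembly, measured 56.3, 26.9, 62.0, 27.5 and 37.0 CPM at E11.5, against 172 and 146 CPM in epithelium, 948 and 152 CPM in muscle, and 273 and 180.4 CPM in chondroblasts. Ltbp3, which binds latent TGF-beta, measured 9.59 to 16.5 CPM at E11.5 and 37.2 to 167 CPM after the sort. Thsd4, which binds fibrillin microfibrils, measured 20.9 to 45.4 CPM at E11.5 and 100.1 to 384 CPM after the sort. In all 3 genes the stages did not overlap, and the epithelium held the lowest sorted library for Fbln5 and Ltbp3. In a list of elastic fibre genes put together after these values were seen, 4 of 20 lay above, Ltbp4 being the other one, where 1.78% of all genes tested did. Since Fbln5, Ltbp3 and Thsd4 were already known as members when the list was made, nothing is read from this share. In epithelium 3 of this list were called higher and 4 lower, with a median of −0.61, while 15 were called higher in muscle and 14 in chondroblasts, which is a description only. Of all genes tested, 5.23% were called higher and 7.43% lower in epithelium, and 4.96% and 2.53% higher in muscle and chondroblasts. Of 26 genes for fibrillar and elastic matrix, 4 lay above, namely Col6a3, Col12a1, Fbln5 and Dcn. In this list 21 genes were called higher in muscle and 20 in chondroblasts, while in epithelium 3 were higher and 8 lower; the medians were 1.97, 2.00 and −0.48 on the log2 scale, against −0.06, −0.06 and −0.13 over all genes tested.

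The remaining members named for the widest gap were Lmcd1 (8.12 to 15.6 CPM at E11.5, 51.8 to 145 CPM sorted), Nrbp2, Penk, Cbx6, Fgf11, Galnt18 and Me1, with BC023719, which measured at most 0.309 CPM at E11.5 and 4.68 to 13.2 CPM sorted. Penk, the precursor of the enkephalins, measured 6.36 to 14.8 CPM at E11.5 and 31.4 to 129.9 CPM sorted. Me1, the cytosolic malic enzyme, measured 8.45 to 12.7 CPM and 26.0 to 60.2 CPM.

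**Figure D1:**
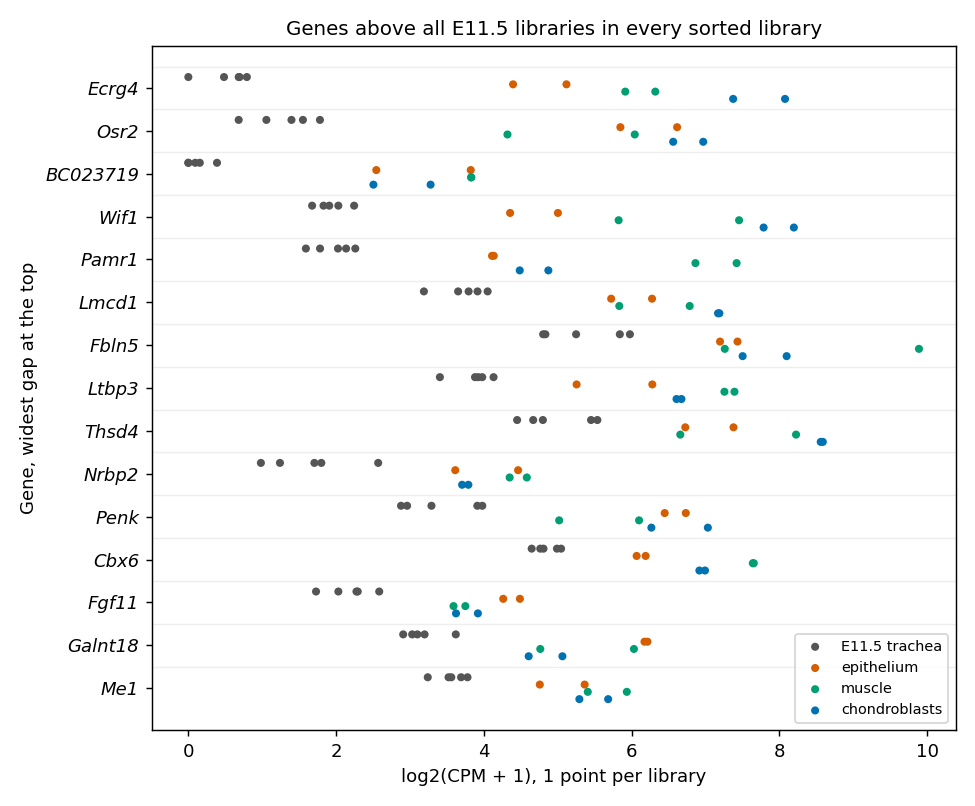
Level of the 15 named genes above E11.5, as log2(CPM + 1), with 1 point for each library, 5 for E11.5 and 2 for each sorted population. In each row the sorted points lie to the right of the E11.5 points, which is how the genes were chosen.

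The level in epithelium was a median of 96.7% of the mean of muscle and chondroblasts over the 266 genes, against 92.9% over all genes tested, and 242 of the 266 were at 50% or more, against 11117 of 14923 genes tested. The choice of members itself removes genes low in epithelium. The 10 genes under 25%, against 2383 of the 14923, were Ecrg4, Wif1, Pamr1, Agtr2, Gdf10, Gdf5, Dcn, Col6a3, Fibin and Wwp2. Beside these, 16 mesenchymal markers, listed after values were seen, stood in the epithelium at a median of 8.65% of their mesenchymal level, with a highest value of 43.0%, their sums there being 898 and 1586 CPM, led by Col3a1, against 11863 to 14941 CPM in the mesenchymal sorts. The part of mesenchymal RNA in the epithelial values of those 10 genes was not tested.

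Dpep1, Dct and Unc5b were among the genes with the widest gap downwards. Dpep1, a membrane dipeptidase, measured 10.3, 16.8, 11.6, 19.3 and 9.41 CPM at E11.5, against 1.03 and 0 CPM in epithelium, 0.0587 and 0 CPM in muscle, and 0.0995 and 0 CPM in chondroblasts. Dct, an enzyme of melanin synthesis, measured 3.75 to 13.9 CPM at E11.5 and 0 in all 6 sorted libraries, where the floor of 3 counts is at most 0.218 CPM. Unc5b, a netrin receptor, measured 19.8 to 41.0 CPM at E11.5 and 0.128 to 4.68 CPM sorted. In each of these the highest sorted library was below the lowest E11.5 library, by the choice of members. Tmem88 measured 18.1 to 39.7 CPM and 0.255 to 4.17 CPM, Gata4, a transcription factor of heart and gut development, 11.47 to 30.1 CPM and 0 to 2.98 CPM, and Raet1d, a ligand of the NKG2D receptor, 21.2 to 29.9 CPM and 0 to 6.82 CPM. Cd40, Gja5, Pcdh12, Plvap, Clca3a1, Igdcc3, Lin28b, Lrrn4 and Upk3b complete the 15.

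**Figure D2:**
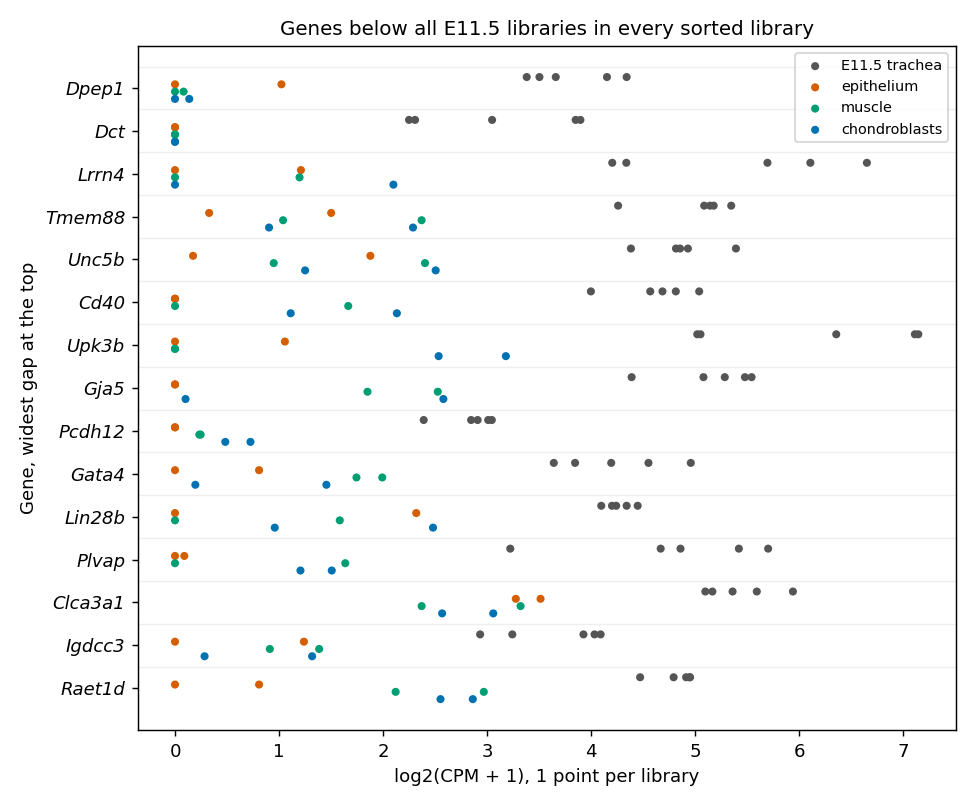
Level of the 15 named genes below E11.5, as log2(CPM + 1), with 1 point for each library. The sorted points lie to the left of the E11.5 points in each row, and several of them are at 0.

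Of 14 endothelial markers, 10 lay below E11.5: Pecam1, Cdh5, Kdr, Tie1, Emcn, Cldn5, Egfl7, Sox17, Sox18 and Plvap, where 4.38% of all genes tested did. By edgeR 12 of the 14 were called lower in epithelium, 5 in muscle and 1 in chondroblasts. The shares of all genes tested called lower were 7.43%, 4.33% and 1.9%. Tie1, an endothelial receptor kinase, measured 74.7, 37.8, 64.1, 69.2 and 31.9 CPM at E11.5, against 0 and 0.128 CPM in epithelium, 0.117 and 0 CPM in muscle, and 14.2 and 4.14 CPM in chondroblasts. The list summed to 571, 321, 632, 528 and 300.1 CPM at E11.5 and to 22.5 and 25.1 CPM in epithelium, 119.6 and 99.0 CPM in muscle, and 207 and 131 CPM in chondroblasts, with Egfl7 as its most abundant gene. Tie1 and Sox17 were at 0 in at least 1 library of epithelium and of muscle, and Erg was an exception, with 7.64 to 27.4 CPM in the mesenchymal sorts against 2.89 to 6.11 CPM at E11.5. The other endothelium-linked genes among the 15, Gja5 and Pcdh12, measured 19.9 to 45.6 CPM and 4.24 to 7.25 CPM at E11.5, and 0 in both epithelial libraries. In muscle and chondroblasts both were fitted higher than in epithelium, though below every E11.5 library. The part of a smaller share of endothelial cells in these values was not tested.

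Of 6 mesothelial genes tested, 5 lay below E11.5, namely Wt1, Upk3b, Upk1b, Lrrn4 and Aldh1a2; the share of all genes tested, for these and the lists that follow, was 4.38%. Upk3b measured 80.8, 32.1, 31.4, 137 and 140.4 CPM at E11.5, against 1.08 and 0 CPM in epithelium, 0 and 0 CPM in muscle, and 8.06 and 4.79 CPM in chondroblasts. The exception was Krt19, which epithelium also makes. The list summed to 251 to 782 CPM at E11.5 and to 50.5 to 168 CPM sorted, led by Aldh1a2. Of 5 melanocyte markers tested, a list made after Dct had been seen, 3 lay below (Dct, Pmel and Gpnmb); Tyr, its most abundant gene, did not, and the sums were 22.8 to 100.1 CPM at E11.5 and 9.07 to 26.7 CPM sorted. Of 17 erythroid genes, Hbb-bh1, an embryonic globin, lay below, with 453 to 3007 CPM at E11.5, at most 0.529 CPM in epithelium and muscle, and 266 and 7.69 CPM in chondroblasts. Cardiac and skeletal muscle markers gave 1 member each, Myl7 of 10 and Pax3 of 9. No macrophage, leukocyte, neural or glial marker was a member. The part of any of these cells in the sets was not tested.

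Genes that mark an early developmental state were also among those below. Lin28a and Lin28b block maturation of let-7 microRNAs, and Igf2bp1, an RNA-binding protein, and Igdcc3 are linked to the same early programme; these 4 of 20 early heterochronic genes lay below, where 4.38% of all genes tested did. Lin28b measured 17.4, 19.3, 16.1, 20.8 and 17.9 CPM at E11.5, against 3.99 and 0 CPM in epithelium, 2.00 and 0 CPM in muscle, and 4.58 and 0.944 CPM in chondroblasts. Igf2bp1 measured 161 to 275 CPM at E11.5 and 62.3 to 102 CPM sorted. Neither gene overlapped between the stages. The list was not uniform: Mycn measured 64.8 to 112 CPM at E11.5 and 127 and 36.5 CPM in epithelium, with 3.05 to 14.6 CPM in muscle and chondroblasts, and Igdcc4 was 20.7 to 33.7 CPM at E11.5, 8.21 and 7.98 CPM in epithelium and 52.4 to 89.5 CPM in the mesenchymal sorts. The sums were 1232 to 1837 CPM at E11.5 and 897 to 1137 CPM sorted, led by Gng5. Of 9 tested genes that host let-7 or rise late, 1 was called higher and 1 lower in epithelium, 3 were called higher in muscle and 3 in chondroblasts, and none was a member. Of all genes tested, 5.23% were called higher and 7.43% lower in epithelium, and 4.96% and 2.53% higher in muscle and chondroblasts.

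Cell cycle genes were among those called lower in the mesenchymal sorts. Of 25 genes of G2 and M phase, 6 lay below E11.5 (Top2a, Ccnb1, Cdk1, Cdc20, Plk1 and Ttk), and 19 were called lower in muscle and 13 in chondroblasts. Of all genes tested, 4.38% lay below, and 7.43%, 4.33% and 1.9% were called lower in epithelium, muscle and chondroblasts. In epithelium 0 were called by edgeR, with 3 at an unadjusted p under 0.05 and 1 by DESeq2. Ccnb1, the mitotic cyclin B1, measured 522, 549, 629, 464 and 495 CPM at E11.5, against 369 and 271 CPM in epithelium, 198 and 128 CPM in muscle, and 221 and 146 CPM in chondroblasts. The list summed to 4771 to 5742 CPM at E11.5, 4703 and 4380.4 CPM in epithelium, and 1916 to 2838 CPM in the mesenchymal sorts. Of 25 S phase genes, 6 lay below (Pcna, Mcm5, Rrm2, Tyms, Gins2 and Ccne2), and 2, 11 and 4 were called lower in epithelium, muscle and chondroblasts. Tyms stood at 1451 CPM in E11.5 library E against 345 to 741 CPM in the other 4 libraries, and at 146 to 287 CPM sorted.

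The promoters of the 6 G2 and M phase genes are shown because genes of this phase are known to share short elements near their start sites; they run from 250 bases before to 50 after the start, in RefSeq's GRCm38.p6. Capitals mark CCAAT and the CHR letters TTTGAA on either strand, the reverse being ATTGG and TTCAAA. These lists and promoters were picked after the matches were counted, and a match is a description of the letters only. Top2a, on the minus strand at chr11:99024140-99024439, held 2 CHR and 6 CCAAT matches. Ccnb1, minus strand, chr13:100786437-100786736, held 0 and 2. Only the spelling TTTGAA was searched for CHR, so a count of 0 says nothing of other spellings. Cdk1, minus strand, chr10:69352863-69353162, held 2 and 3. Cdc20, minus strand, chr4:118437294-118437593, held 1 and 2. Plk1, plus strand, chr7:122159185-122159484, held 1 and 1. Ttk, plus strand, chr9:83834439-83834738, held 1 and 2.
Top2a: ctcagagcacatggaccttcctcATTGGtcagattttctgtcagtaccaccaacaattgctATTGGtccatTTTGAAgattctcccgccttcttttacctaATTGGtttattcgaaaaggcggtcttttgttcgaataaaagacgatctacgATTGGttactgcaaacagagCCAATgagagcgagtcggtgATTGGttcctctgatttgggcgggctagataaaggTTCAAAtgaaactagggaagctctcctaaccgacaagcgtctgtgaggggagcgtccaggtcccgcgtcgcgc
Ccnb1: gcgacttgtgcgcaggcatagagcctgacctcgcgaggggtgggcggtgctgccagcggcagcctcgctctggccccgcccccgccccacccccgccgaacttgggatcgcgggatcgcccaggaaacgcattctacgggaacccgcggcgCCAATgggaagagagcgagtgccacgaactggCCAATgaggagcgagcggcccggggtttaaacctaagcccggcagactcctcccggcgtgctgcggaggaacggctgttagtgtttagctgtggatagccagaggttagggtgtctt
Cdk1: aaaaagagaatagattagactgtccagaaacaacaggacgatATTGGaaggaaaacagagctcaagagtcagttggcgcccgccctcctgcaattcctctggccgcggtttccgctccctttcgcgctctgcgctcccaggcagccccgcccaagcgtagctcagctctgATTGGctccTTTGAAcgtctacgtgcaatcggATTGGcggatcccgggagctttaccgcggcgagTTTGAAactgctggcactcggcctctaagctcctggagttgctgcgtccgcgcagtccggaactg
Cdc20: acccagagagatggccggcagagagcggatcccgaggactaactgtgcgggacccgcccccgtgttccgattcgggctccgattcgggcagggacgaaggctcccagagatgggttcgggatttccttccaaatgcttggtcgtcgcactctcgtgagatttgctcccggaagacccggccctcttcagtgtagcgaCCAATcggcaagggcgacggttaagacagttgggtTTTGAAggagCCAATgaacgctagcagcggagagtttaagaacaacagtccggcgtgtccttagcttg
Plk1: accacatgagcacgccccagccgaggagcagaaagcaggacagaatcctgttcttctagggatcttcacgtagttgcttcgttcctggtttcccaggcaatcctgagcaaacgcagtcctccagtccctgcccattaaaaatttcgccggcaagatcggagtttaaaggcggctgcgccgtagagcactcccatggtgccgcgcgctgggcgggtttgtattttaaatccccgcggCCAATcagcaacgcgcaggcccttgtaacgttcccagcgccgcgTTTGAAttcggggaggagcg
Ttk: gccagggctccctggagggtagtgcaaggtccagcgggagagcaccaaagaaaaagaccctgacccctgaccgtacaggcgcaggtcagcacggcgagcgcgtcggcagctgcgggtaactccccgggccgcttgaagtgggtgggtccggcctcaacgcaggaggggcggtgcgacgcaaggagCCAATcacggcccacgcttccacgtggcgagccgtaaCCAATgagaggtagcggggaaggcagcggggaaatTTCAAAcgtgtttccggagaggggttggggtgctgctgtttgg

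Of 25 genes of G2 and M phase, 21 had a promoter in the table; CHR was in 76.2% and CCAAT in 90.5% of them, against 18.1% and 37.9% of all 27025 promoters there. In the S phase list, also 21 of 25 with a promoter, the shares were 14.3% and 61.9%. The other letters searched, on both strands, were AP-1 (TGANTCA), CRE (TGACGTCA), an E-box (CACGTG) and a GC box (GGGCGG), found in 7.93%, 1.88%, 7.24% and 35.9% of all promoters. They were in 0%, 4.76%, 4.76% and 85.7% of the G2 and M phase promoters, and in 0%, 4.76%, 4.76% and 76.2% of the S phase promoters. Among 21 promoters of 26 immediate early genes, described next, AP-1 was found in 0, CRE in 9.52%, CCAAT in 33.3%, CHR in 14.3%, the E-box in 19% and the GC box in 85.7%. Among the genes above E11.5, 216 of 266 had a promoter, with AP-1 in 4.63%, CRE in 1.85%, CCAAT in 40.7%, CHR in 8.33%, the E-box in 10.2% and the GC box in 69.0%. In the 11775 promoters found for genes tested, the shares were 4.65%, 3.18%, 38.9%, 12.2%, 9.99% and 62.8% in the same order. Nothing is read from differences between any of these shares. For the genes below, 483 of 655 (73.7%) had one, too few for the search, which is void for them, as it is for all genes tested, where 78.7% of 14971 had one.

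Immediate early genes are transcribed within a short time of a stimulus. Of 26 genes, 6 lay above E11.5 (Fos, Jun, Junb, Ier3, Zfp36 and Klf4), where 1.78% of all genes tested did, and 13 were called higher and 1 lower in epithelium and 6 higher in muscle, where 5.23% and 4.96% of all genes tested were called higher, and 7.43% lower in epithelium. In chondroblasts 0 were called by edgeR, with 7 at an unadjusted p under 0.05 and 2 by DESeq2. Fos measured 2.84, 588, 37.0, 3.09 and 7.71 CPM at E11.5, against 2577 and 2581 CPM in epithelium, 2161 and 1207 CPM in muscle, and 1745 and 629.7 CPM in chondroblasts. The list summed to 624, 3555, 807, 617 and 519 CPM at E11.5, to 13305 and 16731 CPM in epithelium, 9919 and 5645 CPM in muscle, and 5408 and 3728 CPM in chondroblasts, led by Jun. E11.5 library B therefore stood close to the later chondroblasts, and the other 4 stood far below. Library B shares its number with Wnt5a mutant D, and that library was also the high one of its group, with 4778 CPM against 516 to 688 CPM in mutants A to C. Of 15 heat shock genes, 4 were called higher in epithelium and 2 in muscle, and 1 was called lower in chondroblasts, where 1.9% of all genes tested were, while the 2 members, Dnaja1 and Hspe1, lay below, where 4.38% of all genes tested did. Of 16 cell cycle inhibitors Gadd45b lay above. Handling and stage cannot be told apart.

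**Figure D3:**
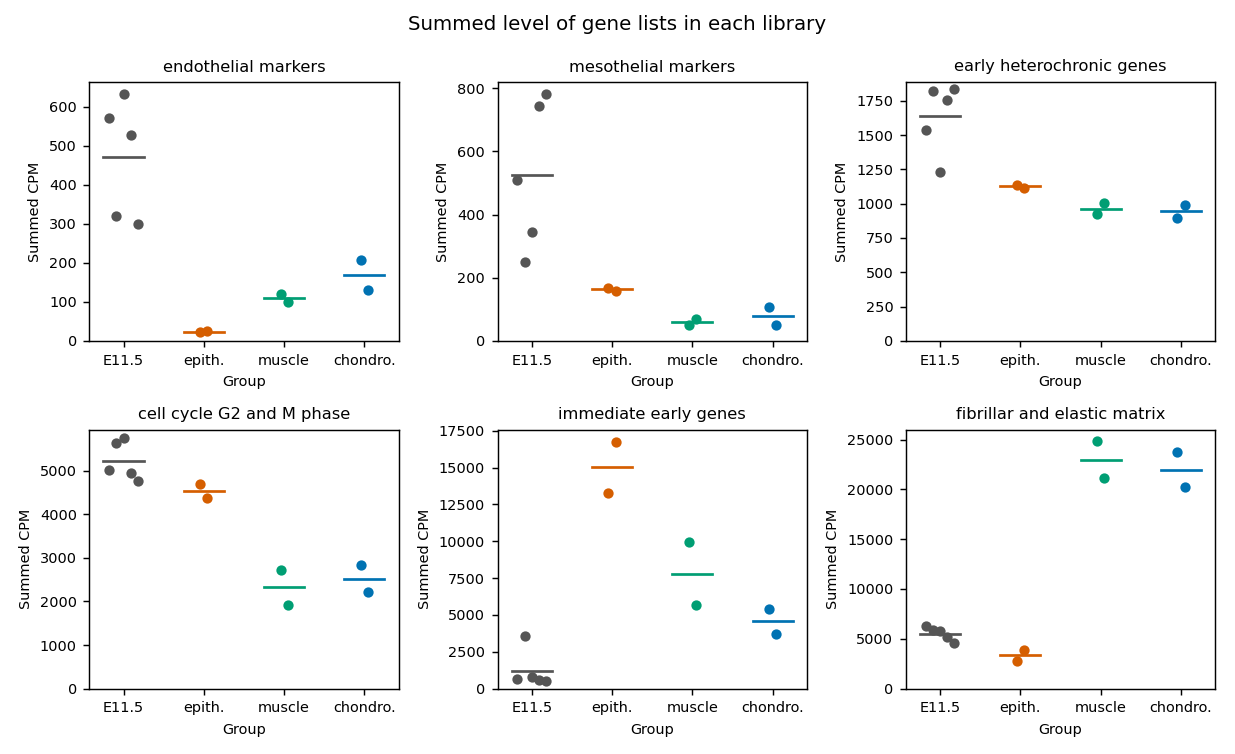
Summed level of 6 gene lists, in CPM from 0, with 1 point for each library and a line at the mean of its group. Endothelial and mesothelial sums are lower in all sorted groups, G2 and M phase sums mainly in muscle and chondroblasts, and E11.5 library B is the high point among the immediate early sums, at 3555 CPM.

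Of 20 proteasome subunits, 7 lay below E11.5 (Psma1, Psma3, Psma5, Psmb3, Psmb5, Psmb6 and Psmc3), where 4.38% of all genes tested did, with Psmb6 at 675 to 773 CPM at E11.5 and 493 to 601 CPM sorted, and 1 was called lower in each population, where 7.43%, 4.33% and 1.9% of all genes tested were. Of 25 nuclear genes of oxidative phosphorylation, 6 lay below (Ndufa4, Ndufb8, Uqcrfs1, Cyc1, Atp5c1 and Cycs); Atp5c1 measured 501 to 543 CPM and 396 to 474 CPM, and 1 of the list was called lower in epithelium and 1 in chondroblasts. The gaps were narrow, which the separation of groups alone does not show. Ribosome biogenesis gave Npm1 and Nip7 of 25, ribosomal proteins Rpl5 of 25, and cholesterol synthesis Hsd17b7 and Stard4 of 24, all below, against the same 4.38%. Of 21 glycolysis genes, 8 were called higher and 2 lower in epithelium, where 5.23% of all genes tested were called higher, with a median of 0.72, and the list summed to 22661 and 21124 CPM there against 11825 to 17741 CPM at E11.5. In muscle 1 glycolysis gene was called higher, as were 4.96% of all genes tested, and 3 lower, in chondroblasts 1 was called lower, and the only member, Slc16a1, lay below. Above, where 1.78% of all genes tested lay, were Higd1a of 18 hypoxia genes, Tapbp of 20 genes of antigen presentation and interferon response, Cd63 of 21 lysosome genes, and Lamb2 and Col4a5 of 17 basement membrane genes, of which Col18a1 lay below. None of the p53 targets, imprinted growth genes, genes of the secretory pathway, chromatin modifiers or sex-linked genes was a member, and no transcript of the mitochondrial genome was in the table.

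Among 12 commonly used reference genes, listed after values were seen, Actb and Tubb5 lay below and Eef1a1 above, where 4.38% and 1.78% of all genes tested lay. Actb measured 2275 to 4039 CPM at E11.5 and 604 to 860.4 CPM sorted. Actb and Actg1 are near-identical in coding sequence and Eef1a1 has many processed copies, so their counts are uncertain where reads were divided.

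The list of genes from the study held 8 that it names for this pair of stages, and Col2a1, which it names for another comparison. Of these 9, Osr2 and Gdf5 lay above and Tbx18 below, where 1.78% and 4.38% of all genes tested did. Tbx18 measured 17.4 to 54.3 CPM at E11.5, 0 in epithelium and 4.47 to 6.32 CPM in the mesenchymal sorts. These genes may have been picked on libraries of this series, so their direction is not taken as independent evidence. Gdf5, a ligand of the bone morphogenetic protein family known for its part in joint formation, measured 0.878 to 10.8 CPM at E11.5 and 18.1 to 133 CPM in the sorted libraries. Igf1, a growth factor, measured 45.2 to 90.3 CPM at E11.5, 74.6 and 88.5 CPM in epithelium, and 509 to 886 CPM in the mesenchymal sorts. With edgeR it was higher in muscle by 3.52 ± 0.27 on the log2 scale (SE), in 2 of 2 libraries. The fitted changes of Igf1 and Col9a1 come from the libraries that also set the members, so they are a description and no test. Col9a1, a cartilage collagen, was higher in chondroblasts by 2.44 ± 0.29 and lower in epithelium, by −1.60 ± 0.34, in 2 of 2 libraries each. Acan, the core protein of aggrecan, measured 0.0526 to 1.08 CPM at E11.5, at most 0.235 CPM in epithelium and 5.02 to 12.6 CPM in the mesenchymal sorts. Col2a1 measured 1181 and 886 CPM in chondroblasts against 89.3 to 309 CPM at E11.5. Barx1 and Hoxc5 were low throughout, at most 9.00 and 11.3 CPM, and neither passed the test in any control population. Under other settings they did: with the later date only, Barx1 was called lower in epithelium and higher in chondroblasts, and Hoxc5 lower in both; with the earlier date only, Hoxc5 was called lower in muscle; and Barx1 was called higher in chondroblasts in a fit of all 18 libraries and without either epithelial library.

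The members were then tested in the mutant libraries, which the choice of members did not use. Notum mutant chondroblasts against Wnt5a mutant E11.5 tracheas gave, by edgeR with Benjamini-Hochberg adjustment, 1513 higher genes (10.3%) and 1420 lower genes (9.7%) of 14640. Of the 266 genes above, 262 could be tested; 234 had a positive change, 117 (44.7%) were called higher and 0 lower, with 3 lower at an unadjusted p under 0.05 and 3 by DESeq2. Of the 655 genes below, 574 could be tested; 540 had a negative change, 268 (46.7%) were called lower and 1 higher. The median change was 0.68 for the genes above and −0.80 for the genes below, against 0.02 over all genes tested, and the second stayed at −0.80 with the 4 genes at 0 in a whole group set at the floor of 3 counts. All 3 chondroblast mutants lay above all 4 E11.5 mutants in 176 of the 262, and below in 358 of the 574, against 2934 and 2608 of all 14640. Without Notum mutant A the calls were 774 higher and 653 lower over all genes, with 75 of the genes above and 137 of those below. Without Notum mutant B they were 836 and 743, with 153 of the genes below, and without Notum mutant C 957 genes were higher. Only the double-negative population has such libraries, so the epithelium and muscle were not tested again. Genes absent from the mutant fit had too few counts in both groups, so these shares do not cover every member. A gene entered this fit when it passed the limit of 1 CPM in either group. Members near 0 in the chondroblast mutants, such as Dct, could enter only through the E11.5 mutants, which fixes a negative sign. In reverse, members near 0 in the E11.5 mutants, such as Ecrg4, could only show a positive one. For such genes the sign is no evidence, and their number was not counted.

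**Figure D4:**
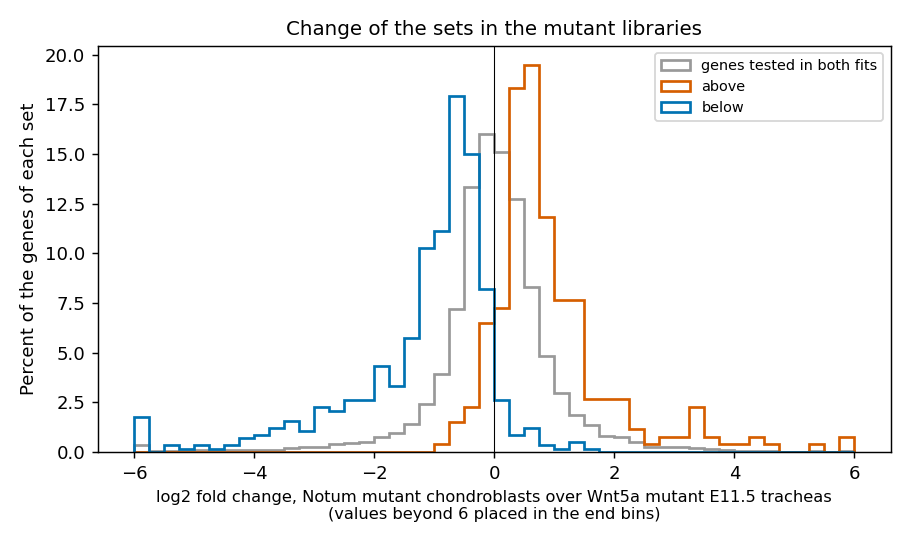
Share of genes, in percent, by log2 fold change between Notum mutant chondroblasts and Wnt5a mutant E11.5 tracheas, in bins of equal width. The genes above lie to the right of the 14280 genes tested in both fits, with a median of 0.68 against 0.01, and the genes below to the left, with a median of −0.80; values beyond 6 stand in the end bins.

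Among the named genes above, Ecrg4 measured 0.113, 0.554, 0.118 and 0.214 CPM in the E11.5 mutants and 87.5, 141 and 87.8 CPM in the chondroblast mutants, a change of 8.67 ± 0.43 on the log2 scale with its SE (edgeR, Benjamini-Hochberg adjusted p = 3.09e-05); the size of this change rests on E11.5 values near the floor of 3 counts. Wif1 measured 1.77 to 8.09 CPM and 418 to 511 CPM, a change of 6.80 ± 0.47 (edgeR, Benjamini-Hochberg adjusted p = 8.65e-05). Gdf5 rose by 3.07 ± 0.46 (edgeR, Benjamini-Hochberg adjusted p = 0.00247). In these 3 genes every chondroblast mutant exceeded every E11.5 mutant. Osr2, Pamr1, Lmcd1, Fbln5, Ltbp3, Thsd4, Nrbp2, Penk, Cbx6 and Me1 were also called higher. The call of Fbln5, whose change was 1.21 ± 0.35, was lost when any 1 library other than Wnt5a mutant B was left out, and that of Penk without Notum mutant C. Galnt18 (0.53 ± 0.32) and Fgf11 (1.16 ± 0.37) did not pass the test. BC023719 was at or near 0 in all 7 mutant libraries and was not tested. In control chondroblasts, by contrast, BC023719 measured 4.68 and 8.71 CPM. Of the 262 members above that were tested, 28 had a negative change, Rps18-ps4 and Pisd-ps1 among them. Rps18-ps4 measured 144 and 278 CPM in control chondroblasts and 16.2 to 28.1 CPM in the chondroblast mutants. For Gm8615, not in the mutant fit, these were 30.3 and 15.9 CPM, and 0.203 to 0.45 CPM. Why these entries differ was not tested. In the matrix list, 21 of 26 genes were called higher, among them Col6a3 (3.60 ± 0.45) and Dcn (2.36 ± 0.49), with a median of 1.60, where 10.3% of all genes tested were called higher. Markers of other cells moved in the same contrast of a sort with a whole organ: 14 of 15 epithelial markers and 8 of 12 smooth muscle markers were called lower, where 9.7% of all genes tested were, with medians of −4.90 and −2.05, and of the 16 mesenchymal markers 9 were called higher and 1 lower. Without Wnt5a mutant D, 16 of the matrix genes and 5 of the mesenchymal markers were called higher, and 13 of the epithelial and 7 of the smooth muscle markers lower, where 8.16% and 8.45% of all 14832 genes tested were called higher and lower. Their part in the matrix values was not tested.

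Among the genes below, Dct measured 2.83 to 4.82 CPM in the E11.5 mutants and 0.0939, 0.05 and 0 CPM in the chondroblast mutants, and was called lower; its fitted change rests on counts near the floor. Tmem88 fell by 2.56 ± 0.24 on the log2 scale with its SE (edgeR, Benjamini-Hochberg adjusted p = 0.000324) and Unc5b by 2.77 ± 0.40 (edgeR, Benjamini-Hochberg adjusted p = 0.00217). Dpep1, Cd40, Gja5, Pcdh12, Lin28b, Plvap, Clca3a1 and Igdcc3 were called lower too. The call was lost for Gja5 without Wnt5a mutant B or C or any Notum mutant, for Plvap without Notum mutant B or C, and for Clca3a1 without Notum mutant A or B. Raet1d, at 14.8 to 29.5 CPM in the E11.5 mutants and 16.6 to 21.3 CPM in the chondroblast mutants, did not differ beyond its error, and Gata4 ran the other way without passing the test (0.78 ± 0.44). Against 9.7% of all genes tested called lower and 10.3% called higher, 11 of 14 endothelial genes were called lower and 1 higher, 24 of 25 G2 and M phase genes lower, 16 of 25 S phase genes lower and 1 higher, and 10 of 19 early heterochronic genes lower and 1 higher. Of 6 mesothelial genes, 1 was called lower (Aldh1a2); Upk3b measured 20.8, 0.25 and 17.5 CPM and Lrrn4 17.3, 0.45 and 7.78 CPM in the chondroblast mutants, so mutant B stood apart from the others. Of 20 proteasome subunits 3 were called lower, and of 25 oxidative phosphorylation genes 6 were, with medians of −0.40 and −0.37.

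Immediate early genes gave 0 of 24 called higher in the mutants by edgeR, with 1 at an unadjusted p under 0.05 and 0 by DESeq2, and 1 was called lower, where 10.3% and 9.7% of all genes tested were called higher and lower. Fos measured 4.42, 1.83, 2.01 and 1011 CPM in the E11.5 mutants and 529.9, 271 and 276 CPM in the chondroblast mutants, so mutant D exceeded them all. Without mutant D, 13 of 25 were called higher and 1 lower, against 8.16% and 8.45% of all genes tested without it, and the change of Fos went from 0.49 to 7.02 on the log2 scale, that of Junb from 1.35 to 3.78 and that of Jun from 2.01 to 3.26. The result for these genes therefore rests on that library. Macrophage and leukocyte markers, with no member in either set, were called higher in 12 of 14, against 10.3% of all genes tested, at 565 to 868 CPM in sum against 206 to 319 CPM.

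The edge of the sets was fine. Just inside the genes above were Lamtor3, whose lowest sorted library read 68.90 CPM against 68.86 CPM for the highest E11.5 library, and Ier3ip1, and just outside were Wdr83os and Sepsecs. Just inside the genes below were Zfp322a, with 86.89 CPM against 86.93 CPM, and Tmem204, and just outside were Mtg2 and Ube2f. Membership of genes near the edge thus depends on differences far below the spread between libraries. With a gap of at least 1.5-fold the counts were 58 above and 212 below. Single libraries also set the number above, which was 409 without E11.5 library B, 449 without the earlier epithelium and 433 without the later one. With the epithelium left out, a choice made after the data were seen, 1171 genes lay above and 1525 below.

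The median length of the longest transcript was 3170 nucleotides above, 2680 below and 3372.5 over all genes tested, and the median GC content was 51.9%, 49.2% and 49.6%, with a value for 98.5%, 94.4% and 96.9% of the genes. Symbols of the forms Gm with a number, Rik, Mir, Snor and LOC made up 4.51% of the genes above, 13.6% of those below and 6.95% of all genes tested. Symbols ending in -ps, with or without a number, made up 1.13% (3 genes), 0.305% and 0.361%.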

How the data were processed

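The authors deposited estimated counts (expected counts) per entry, with no normalization, for SMART-Seq v4 and Nextera XT libraries of poly(A) RNA. The tool that made them is not stated. Of 22 columns, 4 could not be matched to a group from the labels and were not used. The 47248 entries were summed over 26202 gene symbols, 9286 of which had several entries, and rounded for testing, since 56.0% of values were fractional. Genes above 1 CPM in over 50% of the libraries of a group were tested.

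Libraries were scaled by the trimmed mean of M-values and tested with edgeR 4.0.16 (quasi-likelihood, 2-sided, Benjamini-Hochberg over all genes tested) in R 4.3.3, the 4 control groups in 1 fit and the mutants in another. DESeq2 1.42.0, limma 3.58.1 (voom), other scalings, filters, thresholds, a date term, single dates, a fit of all libraries and each library left out were tried. The fits were also tested on simulated data. Motifs and figures were made in Python 3.11.15.

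Genes were named as the 15 per direction with the widest gap in log2(CPM + 1) between the nearest libraries of the groups, leaving out symbols of the forms Gm with a number, Rik, mt-, Mir, Snor and LOC, with list examples, genes the study names and genes at the threshold. Members and lists were chosen with earlier results of these data known. Some list examples outside this rule, added lists and the printed promoters were chosen after values were seen.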

Additional observations from a re-analysis of the deposited data

Results flagged for a closer look

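In 7 of 106 values tested, 1 of the 5 E11.5 libraries stood far from the others, its gap to the nearest one exceeding 0.71 of the whole range. Chance flags about 1 in 20 groups. In library B the levels were 899 CPM for Jun, 80.8 CPM for Junb, 588 CPM for Fos, 37.1 CPM for Zfp36 and 309 CPM for Col2a1, all the highest of their group, and the summed immediate early genes reached 3555 CPM there. In library C, Mycn was the lowest of its group, at 64.8 CPM.

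Values here are differences between populations in the log2 fold change from E11.5, for named genes where edgeR gives a Benjamini-Hochberg adjusted p under 0.05. They come from the libraries that also set which genes are members, and some of these genes were picked after values were seen, so they are a description and no test. Outside the members there were 9 such genes. Epithelium minus muscle gave Igf1 (-3.17), Acan (-5.77), Col9a1 (-2.94), Mycn (4.04), Trim71 (8.16), Hmga1 (1.69) and Igdcc4 (-3.32). Epithelium minus chondroblasts gave Igf1 (-2.81), Acan (-6.29), Col9a1 (-4.04), Col2a1 (-2.11), Mycn (3.20), Trim71 (8.16), Hmga1 (1.55), Hmga2 (-1.68) and Igdcc4 (-3.01).

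For members, epithelium minus muscle gave Wif1 (-2.19), Pamr1 (-3.12), Ltbp3 (-1.49), Cbx6 (-1.53), Gja5 (-8.94), Pcdh12 (-4.65), Raet1d (-3.67), Tbx18 (-9.36), Dcn (-2.46), Col6a3 (-3.38), Top2a (0.73), Ccnb1 (0.97), Plk1 (0.89) and Pcna (0.76). Epithelium minus chondroblasts gave Ecrg4 (-3.01), Wif1 (-3.34), Cbx6 (-0.83), Cd40 (-8.25), Gja5 (-8.41), Pcdh12 (-6.14), Raet1d (-3.80), Tbx18 (-9.54), Dcn (-3.11), Col6a3 (-2.74), Tie1 (-7.19) and Cdh5 (-6.44). Muscle minus chondroblasts gave Pamr1 (2.52) and Tie1 (-7.09). The fitted values of Gja5, Pcdh12, Tbx18, Cd40, Tie1, Cdh5, Acan and Trim71 depend on the prior count, since a population was at or near 0 counts, and are no bounds.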

How the results depend on the processing

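Most gene values kept their direction and their side of the threshold. Of 808 values of 89 gene results under alternatives other than leaving out a library, 756 did, 24 lost the call, 24 gained it and 4 changed sign; of 755 values with a library left out, 679 did, 57 lost it, 14 gained it and 5 changed sign. Unless a cause is named, the cause was not tested. With 2 libraries a population, a fit without 1 of them assumes that the lone library varies like the other groups.

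Counts of genes by other settings are given as higher and lower. DESeq2 gave 1217 and 2342 in epithelium, 1144 and 1725 in muscle, 754 and 1119 in chondroblasts, and 1033 higher for the mean of the populations, which was 632 and 1482 with edgeR. With limma voom chondroblasts had 571 higher. All 18 libraries in 1 fit gave 1325 and 2250, 1221 and 1562, and 743 and 829 in the 3 populations, 1021 and 2491 for the mean, and 674 and 777 in the mutants, with 166 of the genes below called lower. The study's limits of p under 0.05, unadjusted, and a fold change over 1.5, applied to edgeR with the CPM filter in place of DESeq2 with a filter on FPKM, gave 1592 and 2446, 1620 and 1870, 1197 and 1466, and 1015 and 2387 for the mean. With no filter on low counts 2788 genes were lower for the mean.

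With a replicate block for the date, lower genes numbered 1783 in epithelium, 1123 in muscle, 614 in chondroblasts and 2254 for the mean, and 32 named genes, members included, had a population difference at an adjusted p under 0.05 rather than 27, which is a description. Under this pairing by date, residuals of the populations correlated across 14971 genes, which are not independent, at 0.00943, 0.147 and 0.124. The earlier date alone gave 1333 and 1928 in muscle. The later date alone gave 2346 and 4915 in epithelium, 1638 and 2359 in muscle, 1204 and 2193 in chondroblasts, and 1455 and 5304 for the mean.

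The 266 genes above and 655 below numbered 155 and 377 with the Wnt5a mutants added to E11.5 (more libraries to clear), 58 and 212 with a gap of at least 1.5-fold, 853 and 1178 with the earlier date only, and 954 and 2121 with the later date only (fewer libraries to clear). Without a filter 1111 lay below. With the epithelium left out, chosen after seeing the data, they numbered 1171 and 1525.

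Leaving out each library in turn gave 304 to 1405 higher and 491 to 3221 lower in epithelium, 358 to 1231 and 323 to 1204 in muscle, 121 to 668 and 49 to 459 in chondroblasts, 271 to 1100 and 649 to 3478 for the mean, and 774 to 1899 and 653 to 1628 in the mutants. Of the genes above, 75 to 146 were called higher in the mutants, and of those below 137 to 292 lower. The sets held 278 to 449 and 658 to 971 genes.

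Barx1 changed sign in epithelium with limma voom (-0.83) and the later date only (-3.53, where it was called lower), with -3.52 to 1.19 when a library was left out, and in muscle with the earlier date only (-0.22), with -0.22 to 1.82. Mycn in epithelium did so with the earlier date only (0.35), with -1.45 to 0.35, and Wt1 in the mutants ran from -0.81 to 0.34 (0.16 without Wnt5a mutant B, 0.34 without Notum mutant B).

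The floor of 3 counts was highest in E11.5 library E, at 0.463 CPM. That library nevertheless had the most genes at 1 CPM or more, 17370.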
